A study of Rattus norvegicus with 18 samples.

Results

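The genes described here are 8 eosinophil genes of the rat: Prg2, Prg3, Epx and Rnase3, which encode granule proteins, Ccr3, Il5ra and Siglec5, which encode surface receptors, and Alox15, which encodes a lipoxygenase. They were taken by name, through the RefSeq accession of each array probe, from the 15443 genes named on the array. All 8 were among the 13616 named genes tested, each through 1 probe. In blood of male Brown Norway (BN) rats given procainamide, Ccr3, Prg3, Prg2 and Siglec5 were lower than in blood of BN rats given water. In Sprague Dawley (SD) rats no member passed the test, and Ccr3 was lower on every procainamide array than on every control array.

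Eosinophils are blood granulocytes that mature in the bone marrow under interleukin 5 and move into tissues along eotaxins, which bind the receptor encoded by Ccr3. Their large granules are filled with basic proteins, a peroxidase and ribonucleases that are released in allergy and in defence against worms. Circulating eosinophils are a small share of blood leukocytes, and much of the granule protein message is made while the cells are still maturing.

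The study measured RNA of blood drawn from the venous sinus of the eye on 18 Agilent arrays with 2 colours. The groups were BN rats given procainamide at 40 mg/kg (4 arrays), BN rats given sterile water (4 arrays), SD rats given procainamide at 40 mg/kg (5 arrays) and SD rats given sterile water (5 arrays), all male. Procainamide is used against arrhythmia and can induce a lupus-like disease, and the design asks how the strains differ in their response. Per the labels, Cy5 carried the sample, and Cy3 on every array carried the first control sample of the same strain. The log2 ratio of Cy5 over Cy3 was therefore used for the drug response, and log2 Cy5 for the comparison of the strains, whose references were different RNA. Neither the age of the rats nor the number of doses is in the labels, and nor is the animal behind each array. The p-values thus measure the spread between these samples, which may be technical.

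Each array had 62976 spots, and the median Cy5 signal was 1693.5 to 3187 on BN procainamide arrays, 997 to 1986 on BN control arrays, 1446 to 2627.5 on SD procainamide arrays and 2152 to 2876 on SD control arrays. Markers of blood cells, among them Ptprc, Cd3e, Csf3r, Slc4a1 and Pf4, were well above background on all 18 arrays. The arrays lay on 3 slides. The 4 BN procainamide arrays filled slide 3, scanned on day 1, and the 4 BN control arrays lay on slide 2, scanned on day 2, so that slide and treatment cannot be told apart in BN rats. Slide 1 held all SD control arrays and SD procainamide arrays 1 to 3, and slide 2 also held SD procainamide arrays 4 and 5.

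The 8 probes were above background on most arrays, with Il5ra as the exception. Prg2, Prg3, Epx, Ccr3, Alox15 and Siglec5 were well above background on all 18 arrays, and Rnase3 on all but SD control array 5. Il5ra, the interleukin 5 receptor alpha chain, was well above background on 0 of 4 BN procainamide arrays, 1 of 4 BN control arrays, 1 of 5 SD procainamide arrays and 3 of 5 SD control arrays. Its values therefore lie near the floor of the assay.

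Promoter sequences are shown for the 2 granule genes Prg3 and Epx and for the chemokine receptor gene Ccr3, which the results turn on. They are the RefSeq sequences of 250 bases before to 50 bases after the start site on the rat assembly GRCr8, printed along the gene's strand. Capitals mark a match to AGATAA or TGATAA, letters of the kind bound by GATA factors, searched on both strands. Prg3 at chr3:90478904-90479203 on the plus strand held TGATAA on the opposite strand, 38 bases before the start site:
Prg3: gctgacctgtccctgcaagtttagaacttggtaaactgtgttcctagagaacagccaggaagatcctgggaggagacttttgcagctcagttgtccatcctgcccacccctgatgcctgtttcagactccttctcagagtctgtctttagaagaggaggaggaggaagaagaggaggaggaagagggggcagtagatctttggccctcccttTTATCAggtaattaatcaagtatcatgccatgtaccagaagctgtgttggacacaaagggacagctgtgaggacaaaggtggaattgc
Epx at chr10:73175131-73175430 on the minus strand held neither word:
Epx: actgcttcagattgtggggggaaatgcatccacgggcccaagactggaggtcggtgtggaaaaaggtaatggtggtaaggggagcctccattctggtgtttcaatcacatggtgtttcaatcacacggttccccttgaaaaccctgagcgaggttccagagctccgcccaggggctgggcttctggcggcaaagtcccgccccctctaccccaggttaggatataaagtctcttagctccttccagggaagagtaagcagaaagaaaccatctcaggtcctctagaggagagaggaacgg
Ccr3 at chr8:132499999-132500298 on the plus strand held AGATAA on its own strand, 29 bases before the start site:
Ccr3: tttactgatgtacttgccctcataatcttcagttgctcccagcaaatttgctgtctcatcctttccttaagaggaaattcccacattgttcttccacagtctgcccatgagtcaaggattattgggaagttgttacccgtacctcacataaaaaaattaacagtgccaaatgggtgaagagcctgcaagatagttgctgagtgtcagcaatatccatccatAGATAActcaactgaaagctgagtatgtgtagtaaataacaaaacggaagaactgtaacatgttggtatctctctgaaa
Promoters of 6 of the 8 genes were matched, and 3 of the 6, the third being Siglec5, held a match. Of 33469 rat promoters of the same length 18.9% held one. A match describes the letters and not a bound site.

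In BN rats all 8 members were below their controls in the procainamide group, and 4 of the 8 passed the threshold of 0.05 on the adjusted p, all lower. Over all 26446 probes tested, 14.1% passed in that direction and 21.8% in either. The median log2 difference of the members was -1.40, against -0.04 over all probes. Since whole blood was measured, fewer eosinophils and less of these RNAs per eosinophil cannot be told apart.

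Ccr3, the eotaxin receptor, fell in BN rats with the smallest p of the members. Its log2 ratios were -2.79, -2.83, -1.31 and -1.99 on the BN procainamide arrays, against 0.34, -0.20, -0.81 and -0.35 on the BN control arrays. Every procainamide array lay below every control array. The log2 difference was -1.97 ± 0.30 (SE), 3.93-fold lower, with an adjusted p of 0.000327 (limma, Benjamini-Hochberg). It was the 1 member of the 8 whose groups did not overlap, where 12.4% of all probes were lower without overlap. Leaving out any one of the 8 BN arrays gave differences of -2.28 to -1.77 with adjusted p-values of 5.52e-05 to 0.00158 (limma).

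Prg2 and Prg3 lie beside each other on chromosome 3 and encode major basic protein and its homologue, the main constituents of the granule core. Prg3 had log2 ratios of -3.57, -1.86, -0.80 and -3.02 on the BN procainamide arrays, against 0.82, -1.09, 0.07 and 0.12 on the BN control arrays. Its difference of -2.29 ± 0.71 (SE) had an adjusted p of 0.0287 (limma). The groups overlapped, because procainamide array 3 lay above control array 2. Prg2 had -2.59, -1.59, -0.69 and -1.91 on the BN procainamide arrays, against 0.85, -0.98, 0.15 and 0.09 on the BN control arrays. Its difference was -1.73 ± 0.58 (SE), 3.31-fold lower, with an adjusted p of 0.0425 (limma), and the same 2 arrays made the groups overlap.

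The calls of the 2 granule genes were lost when any 1 of several arrays was left out. For Prg2 the call was lost without BN control array 1 (difference -1.45), control array 3 (-1.68) or control array 4 (-1.70), and without BN procainamide array 1 (-1.43), procainamide array 2 (-1.76) or procainamide array 4 (-1.65). It held without the other two, and the adjusted p ranged from 0.0247 to 0.107 (limma). For Prg3 the call was lost without BN control array 1 (-2.01), control array 3 (-2.26), control array 4 (-2.25), BN procainamide array 1 (-1.87) or procainamide array 4 (-2.06), with adjusted p-values from 0.0119 to 0.0831 (limma) over the 8 omissions. The difference was below 0 in each omission for both genes.

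Epx, the eosinophil peroxidase, did not pass the test. Its log2 ratios were -2.65, -1.34, -0.48 and -1.67 on the BN procainamide arrays, against 1.14, -0.99, -0.06 and -0.64 on the BN control arrays, a difference of -1.40 ± 0.65 (SE, adjusted p = 0.135, limma). Rnase3, a ribonuclease of the family of human eosinophil cationic protein, had -2.89, -1.19, -0.58 and -2.39 on the BN procainamide arrays, against 0.56, -1.61, -0.95 and 0.53 on the BN control arrays. Its difference of -1.39 ± 0.55 (SE) had an adjusted p of 0.0814 (limma). In both genes the groups overlapped, and the control arrays differed among themselves by over 2 log2 units. Without BN control array 2 the Rnase3 difference was -1.81 (adjusted p = 0.0290, limma), and without BN procainamide array 3 it was -1.79 (adjusted p = 0.0321, limma). In the other 6 of the 8 omissions Rnase3 did not pass. Its difference reached -1.02 and its adjusted p 0.232 (limma).

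**Figure D1:**
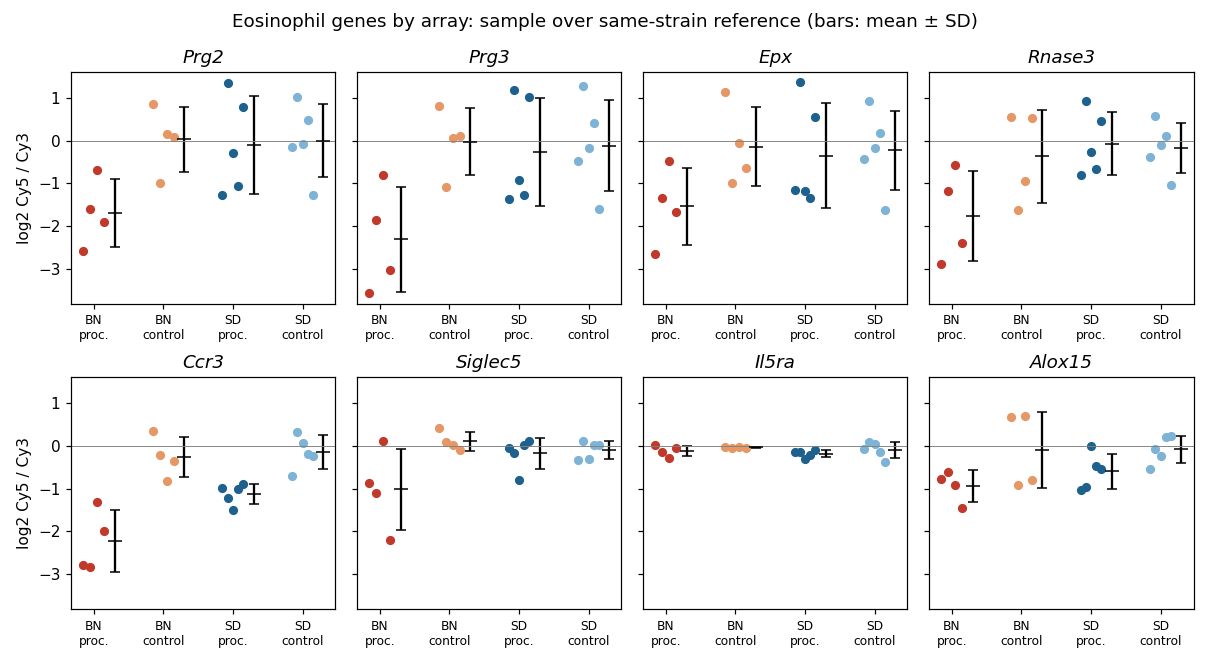
Log2 Cy5 over Cy3 (vertical axis) of each array (points) by group for the 8 genes, with the mean ± SD of each group. Ccr3 is separated between procainamide and control in both strains, while Prg2, Prg3 and Epx span more than 2 log2 units within each SD group.

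Siglec5 encodes a sialic acid-binding lectin of the family to which the mouse eosinophil marker Siglec-F belongs. Its log2 ratios were -0.88, -1.11, 0.12 and -2.20 on the BN procainamide arrays, against 0.43, 0.10, 0.02 and -0.09 on the BN control arrays. Procainamide array 3 lay among the controls, and the other procainamide arrays lay below all of them. The difference was -1.13 ± 0.32 (SE), 2.19-fold lower, with an adjusted p of 0.0187 (limma). Without BN procainamide array 4 it was -0.74 with an adjusted p of 0.0564 (limma).

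Alox15, a lipoxygenase of arachidonic acid found in eosinophils, macrophages and immature red cells, had log2 ratios of -0.78, -0.61, -0.91 and -1.46 on the BN procainamide arrays, against 0.68, -0.91, 0.69 and -0.81 on the BN control arrays. The controls split into a high pair and a low pair, and the low pair lay within the procainamide values. The difference of -0.86 ± 0.34 (SE) did not pass (adjusted p = 0.0808, limma). Without BN control array 2 it was -1.13 (adjusted p = 0.0242, limma) and without BN control array 4 it was -1.10 (adjusted p = 0.0406, limma). In the other 6 of the 8 omissions Alox15 did not pass. Its difference reached -0.60 and its adjusted p 0.237 (limma). The summed Cy5 signal of the 9 erythroid markers measured was 285754 to 458111 on BN procainamide arrays and 277619 to 752277 on BN control arrays, and its part in the Alox15 values was not tested.

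Il5ra had log2 ratios of -0.27 to 0.01 on the BN procainamide arrays and of -0.05 to -0.02 on the BN control arrays. Its mean log2 Cy5 was 6.56 in BN procainamide and 6.84 in BN control. Since 0 of 4 procainamide arrays and 1 of 4 control arrays were well above background, no minimum fold can be given. The control mean rests on BN control array 3, at 7.25, the 1 BN control array well above background. In the reference channel that array was also high, with a log2 Cy3 of 7.27 against 6.71 to 6.77 on the other BN control arrays. Without array 3, as set after the data were seen, the control mean was 6.71 and no array of either group was well above background. The ratio did not pass the test (adjusted p = 0.584, limma).

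**Figure D2:**
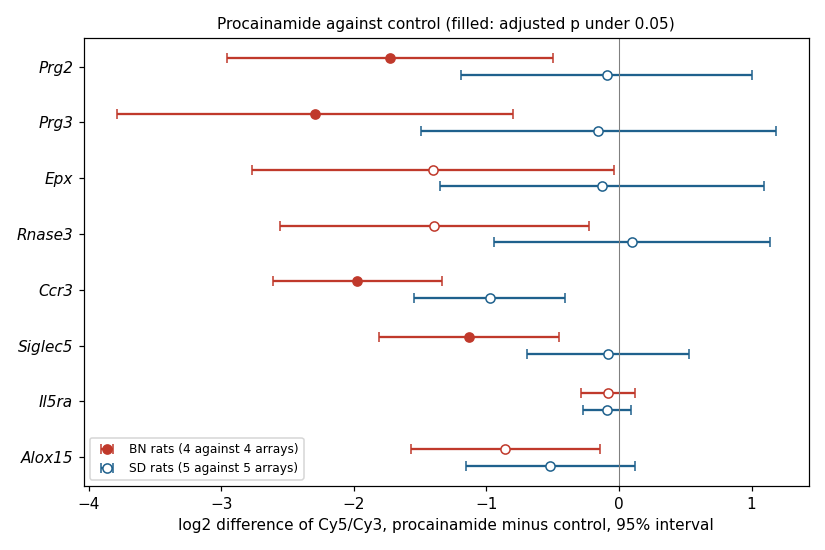
Log2 difference of the Cy5 over Cy3 ratio, procainamide minus control, with 95% intervals from limma (horizontal axis), for each gene in BN rats (upper of each pair) and SD rats (lower). Filled points passed the adjusted p threshold of 0.05, which 4 genes did in BN rats and 0 did in SD rats.

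Part of the BN ratio differences lay in the reference channel. The Cy3 RNA was the same on all 8 BN arrays by the labels, yet the log2 Cy3 of Ccr3 was 10.77 to 11.04 on the procainamide arrays, against 10.32 to 10.49 on the control arrays. The log2 Cy3 of Prg2 was higher by 0.42, that of Prg3 by 0.39, that of Epx by 0.47 and that of Ccr3 by 0.45 on the procainamide arrays, in each case without overlap. Over all probes 31.6% were higher in Cy3 on the procainamide arrays without overlap. In Cy5 taken alone after the same normalization, the difference was -1.53 for Ccr3, again without overlap, -1.31 for Prg2, -1.90 for Prg3, -0.93 for Epx, -1.52 for Rnase3 and -0.94 for Siglec5. With Cy5 quantile normalized without the reference, Ccr3 was at -1.38 (adjusted p = 0.00118, limma), and Prg2, Prg3 and Siglec5 also passed.

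With scan day as a term, which the SD procainamide arrays on slides 1 and 2 allow, 0 of the 8 members passed in BN rats and 1 had an unadjusted p under 0.05 (limma). Ccr3 was then at -1.69 ± 0.50 (SE, adjusted p = 0.152), Prg3 at -2.05 ± 1.20 (0.524), Prg2 at -1.79 ± 0.98 (0.495) and Siglec5 at -0.73 ± 0.53 (0.632, limma). The errors were larger with this term, with a median SE over all probes of 0.214, against 0.134 without it. With the brightness of the array as a term Ccr3 alone passed, at -2.23 (adjusted p = 0.0103, limma).

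In SD rats 0 of the 8 members passed the threshold and 1, Ccr3, had an unadjusted p under 0.05 (limma), where 2.75% of all probes passed in either direction. Ccr3 had log2 ratios of -0.99, -1.23, -1.49, -1.01 and -0.90 on the SD procainamide arrays, against -0.71, 0.34, 0.08, -0.19 and -0.24 on the SD control arrays. Every procainamide array lay below every control array, as was the case for 3.57% of all probes. The difference was -0.98 ± 0.27 (SE), 1.97-fold lower, with an adjusted p of 0.0608 (limma).

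The SD arrays allow slide to be set apart from treatment in part. With slide as a block within the SD arrays, the Ccr3 difference was -1.09 ± 0.21 (SE) and passed (adjusted p = 0.0299, limma). On slide 1 alone, with 3 procainamide and 5 control arrays, it was -1.09 (adjusted p = 0.0520, limma). It also passed in the SD groups fitted alone (adjusted p = 0.0121, limma) and in quantile-normalized Cy5 (-1.03, adjusted p = 0.0319, limma). The log2 Cy3 of Ccr3 was 10.86 and 10.77 on SD procainamide arrays 4 and 5, which lay on slide 2, and at least 10.96 on the SD arrays of slide 1.

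No drug difference was detected for the granule genes in SD rats. Prg3 was at -1.36, 1.18, -0.93, -1.28 and 1.03 on the SD procainamide arrays, against -0.48, 1.28, -0.16, 0.41 and -1.61 on the SD control arrays. Both groups reached from below -1 to above 1, and the difference of -0.16 ± 0.64 (SE) had an interval of -1.49 to 1.18. The differences of Prg2 (-0.09 ± 0.52, SE), Epx (-0.13 ± 0.58) and Rnase3 (0.10 ± 0.49) were smaller than their errors. Alox15 was at -0.52 ± 0.30 (adjusted p = 0.408, limma), Siglec5 at -0.08 ± 0.29 and Il5ra at -0.09 ± 0.09.

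The BN response minus the SD response tests whether the strains responded differently. None of the 8 members passed this test (limma), 3 had an unadjusted p under 0.05, and 11.1% of all probes passed. The difference between the responses was -2.14 ± 0.95 (SE, adjusted p = 0.159) for Prg3, -1.63 ± 0.78 (adjusted p = 0.190) for Prg2, -1.05 ± 0.43 (adjusted p = 0.128) for Siglec5 and -0.997 ± 0.406 (adjusted p = 0.123) for Ccr3. The estimates of these 4 genes were below 0, and their intervals reached from -4.14 to -0.13 for Prg3, from -3.28 to 0.01 for Prg2, from -1.97 to -0.14 for Siglec5 and from -1.85 to -0.14 for Ccr3. Without BN procainamide array 3, Siglec5 was at -1.43 (adjusted p = 0.0151) and Ccr3 at -1.30 (adjusted p = 0.0260), both past the threshold (limma). That array was the highest of its group in 6 of the members' ratios. In the other 17 of the 18 omissions neither gene passed. The differences reached -0.66 for Siglec5 and -0.80 for Ccr3, and the adjusted p-values reached 0.236 and 0.2285 (limma).

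The granule genes were among the most variable of all probes between arrays of 1 group. The SD of log2 Cy5 within groups was 1.01 for Prg3, 0.89 for Epx, 0.72 for Prg2 and 1.06 for Rnase3 on BN arrays, against a median of 0.21 over all probes. On SD arrays it was 1.12 for Prg3, 1.11 for Epx, 0.80 for Prg2 and 0.73 for Rnase3, against a median of 0.18. These values lay at or above the 98.2 percentile of all probes in BN and the 99.3 percentile in SD. Ccr3 lay at the 95.7 percentile in BN, with 0.57, and at the 81.9 percentile in SD, with 0.28. In the reference channel, where each strain's arrays carried 1 RNA by the labels, the SD of Prg3 was 0.21 over the BN arrays and 0.09 over the SD arrays.

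**Figure D3:**
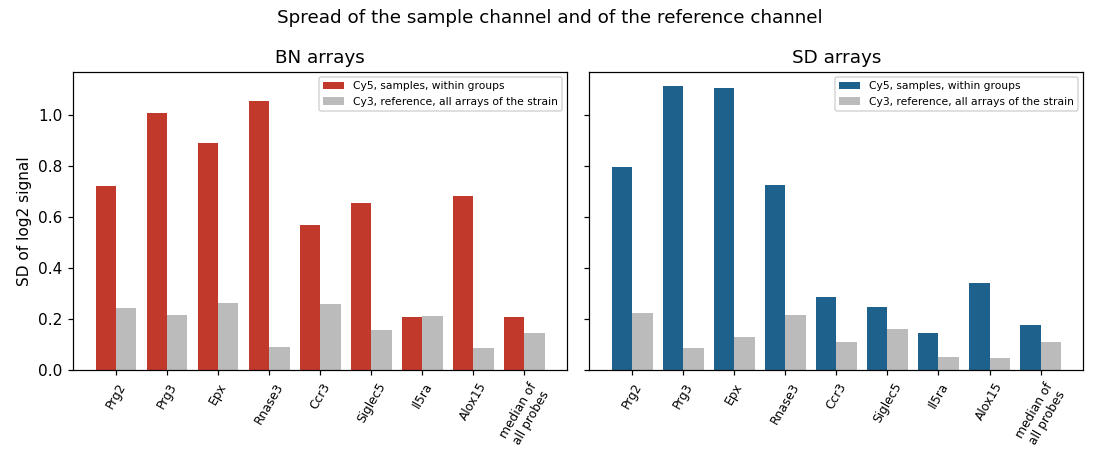
SD of log2 signal (vertical axis) of each gene on BN arrays and SD arrays, for the samples in Cy5 within groups (coloured) and for the reference in Cy3 over all arrays of the strain (grey), with the median over all probes tested at the right. Prg3, Epx and Rnase3 vary several-fold more in Cy5 than in Cy3 in both strains.

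This variation was shared by the granule genes. Over the 18 arrays the log2 Cy5 of Prg2 and Prg3 had a Pearson r of 0.98, and the 6 pairs among Prg2, Prg3, Epx and Rnase3 had r of 0.67 to 0.98. On deviations from the group means, which leave out the drug and strain differences, the 6 pairs had r of 0.81 to 0.97. With Ccr3 the same 4 genes had r of 0.45 to 0.52 on deviations, and with Alox15 0.15 to 0.17. Taken by strain, the r with Ccr3 was 0.57 to 0.73 on BN arrays and 0.22 to 0.37 on SD arrays, and with Alox15 it was 0.30 to 0.59 on BN arrays and -0.34 to -0.15 on SD arrays. Among the 4 granule genes it was 0.77 to 0.97 on BN arrays and 0.92 to 0.97 on SD arrays. Ccr3 and Siglec5 had r of 0.79 over the arrays and 0.56 on deviations. These values describe 18 arrays, whose 2 genes in each pair share the same labelled RNA, slide and normalization.

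The arrays behind this pattern can be named. The mean log2 Cy5 of Prg2, Prg3 and Epx was 9.79, 11.09, 11.96 and 10.48 on BN procainamide arrays 1 to 4, and 13.16, 11.26, 12.26 and 12.15 on BN control arrays 1 to 4. It was 10.67, 13.03, 11.08, 10.62 and 12.48 on SD procainamide arrays 1 to 5, and 11.58, 12.76, 11.74, 12.21 and 10.43 on SD control arrays 1 to 5. SD procainamide array 2 was thus above all 5 SD controls and array 5 above 4 of them, while their Ccr3 log2 ratios, -1.23 and -0.90, were below those of all SD controls.

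**Figure D4:**
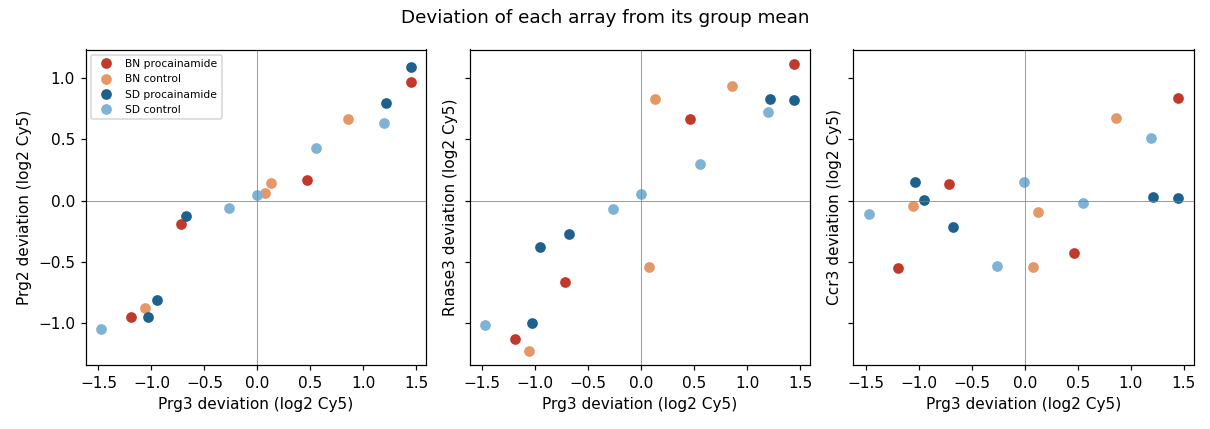
Deviation of each array from its group mean in log2 Cy5, for Prg2, Rnase3 and Ccr3 (vertical axes) against Prg3 (horizontal axes), 18 arrays coloured by group. Prg2 and Rnase3 follow Prg3 closely, with r of 0.97 and 0.92, and Ccr3 less, with r of 0.48.

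By the labels, control array 1 of each strain carries the reference RNA in both channels. On BN control array 1 the log2 ratio was 0.85 for Prg2, 0.82 for Prg3, 1.14 for Epx, 0.68 for Alox15, 0.56 for Rnase3, 0.43 for Siglec5 and 0.34 for Ccr3. On SD control array 1 it was -0.71 for Ccr3, -0.54 for Alox15, -0.48 for Prg3, -0.44 for Epx and -0.15 for Prg2. A ratio of an RNA with itself would be 0, and these arrays differ from that by up to 1.14 log2 units. Without control array 1 of both strains, Ccr3 was the 1 member called in BN rats, and Ccr3 passed in SD rats (-1.12, adjusted p = 0.0364, limma).

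Between the control groups of the strains, 2 of the 8 members passed, where 38.5% of all probes did, 21.2% higher and 17.3% lower in BN. Rnase3 was higher in BN rats, with log2 Cy5 of 10.80, 8.65, 9.33 and 10.698 on the BN control arrays, against 7.92, 8.71, 8.04, 8.29 and 6.97 on the SD control arrays. BN control array 2 lay within the SD values and the other 3 lay above them. The difference was 1.88 ± 0.54 (SE), 3.68-fold higher in BN, with an adjusted p of 0.0111 (limma). Rnase3 stands among related ribonuclease genes on chromosome 15, and whether a strain's sequence or a related transcript alters binding to the probe was not tested.

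Ccr3 was lower in BN controls. Its log2 Cy5 was 10.83, 10.12, 9.62 and 10.07 on the BN control arrays, against 10.35, 11.39, 11.04, 10.86 and 10.77 on the SD control arrays. The groups overlapped, and the difference was -0.72 ± 0.27 (SE), 1.65-fold lower, with an adjusted p of 0.0405 (limma). The call was lost without BN control array 2 (-0.71), array 3 (-0.54) or array 4 (-0.69), and without SD control array 2 (-0.59), array 3 (-0.68), array 4 (-0.73) or array 5 (-0.75). The other 6 members did not pass, with differences of -0.32 for Siglec5 to 0.71 for Prg3. All BN control arrays lay on slide 2 and all SD control arrays on slide 1, so strain and slide cannot be told apart here. With slide as a random block, Rnase3 was at 1.77 (adjusted p = 0.0768) and Ccr3 at -0.73 (adjusted p = 0.137), neither past the threshold (limma).

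Under procainamide 2 of the 8 members passed, both lower in BN rats, where 11.5% of all probes passed in that direction. The log2 Cy5 of Ccr3 was 8.09, 8.21, 9.47 and 8.77 on the BN procainamide arrays, against 9.997, 9.87, 9.63, 9.85 and 9.87 on the SD procainamide arrays. The groups did not overlap, as was the case for 8.23% of all probes in that direction. The difference was -1.21 ± 0.27 (SE), 2.31-fold lower, with an adjusted p of 0.00521 (limma). Siglec5 was at 11.21, 11.26, 12.49 and 10.30 on the BN procainamide arrays, against 12.72, 12.61, 11.99, 12.39 and 12.47 on the SD procainamide arrays. Its difference of -1.12 ± 0.29 (SE) had an adjusted p of 0.0125 (limma), and BN array 3 overlapped the SD values. All BN procainamide arrays lay on slide 3 and the SD procainamide arrays on slides 1 and 2, so strain and slide cannot be told apart here either. With slide as a random block Ccr3 was at -1.21 (adjusted p = 0.036) and Siglec5 no longer passed (adjusted p = 0.0654, limma).

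**Figure D5:**
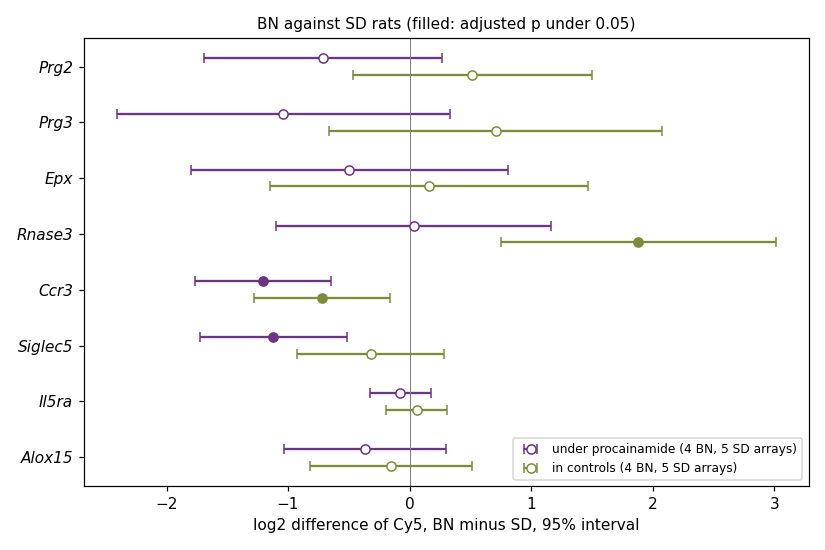
Log2 difference of Cy5, BN minus SD, with 95% intervals from limma (horizontal axis), under procainamide (upper of each pair) and in controls (lower). Ccr3 passed in both comparisons, Siglec5 under procainamide and Rnase3 in controls (filled points). The difference between these comparisons did not pass in quantile-normalized Cy5 (limma), at -0.77 for Siglec5 (adjusted p = 0.137), -1.73 for Rnase3 (0.0827) and -0.34 for Ccr3 (0.504).

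Ordered by mean log2 Cy5, Ccr3 was at 8.64 ± 0.63 in BN procainamide (SD, n = 4), 9.84 ± 0.13 in SD procainamide (n = 5), 10.16 ± 0.50 in BN controls (n = 4) and 10.88 ± 0.38 in SD controls (n = 5). SD procainamide and BN controls are neighbours in this order whose ranges overlapped. The groups of Prg3 were at 10.33 ± 1.19 in BN procainamide, 11.37 ± 1.22 in SD procainamide, 11.52 ± 1.00 in SD controls and 12.22 ± 0.79 in BN controls, each overlapping its neighbour.

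The gene most like the granule genes was Rnase17, the neighbour of Rnase3 on chromosome 15, with an r of 0.79 over the 18 arrays between its log2 Cy5 and the mean of Prg2, Prg3 and Epx. On deviations from group means it had an r of 0.91, also the highest of the 13608 genes outside the members. In BN rats its difference was -1.35 (adjusted p = 0.101, limma), and between the control groups it was 1.51 higher in BN (adjusted p = 0.0377, limma). After it came Atxn10 (r 0.74), Trim40 (0.72), Nat8f5 (0.71), Gnptg (0.71) and Pon2 (0.71) over the arrays. On deviations the next were Zdhhc7 (0.84), Slc46a1 (0.79), Smyd4 (0.78), Cntd1 (0.76) and Tekt1 (0.76). Of these 11 genes, 6 passed as lower in BN rats and 0 as higher (limma), where 14.1% of all probes passed as lower. Trim40 was lower by 1.06, Pon2 by 0.54, Nat8f5 by 0.42, Smyd4 by 0.38, Gnptg by 0.34 and Zdhhc7 by 0.32 on the log2 scale. The genes were chosen on these same arrays, and the first measure kept the group differences in. The count therefore adds nothing to the BN result of the granule genes.

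Of 10 ligands and growth factors of eosinophils, 3 were higher and 3 lower in BN rats, where 21.8% of all probes passed in either direction. The median log2 difference of the 10 was 0.17, and the list itself was not tested. Ccl5, a chemokine that binds Ccr3 among other receptors, had log2 ratios of 0.65 to 1.58 on the BN procainamide arrays, against -0.55 to 0.13 on the BN control arrays, 2.49-fold higher (adjusted p = 0.000554, limma). Ccl7, another ligand of Ccr3, was 3.20-fold higher in BN rats (adjusted p = 0.00319) and 2.55-fold higher in SD rats (adjusted p = 0.0310, limma). Ccl11, eotaxin itself, was 1.76-fold lower in BN rats (adjusted p = 0.0381, limma). Il5, the eosinophil growth factor, was at -0.18 in BN rats (adjusted p = 0.640, limma). Il33, an alarmin that activates eosinophils, was 1.48-fold higher in BN rats, and Il13 was 1.20-fold lower (adjusted p = 0.0346, limma). Il3 also passed as lower, by 1.19-fold in the ratio (adjusted p = 0.0479, limma). For Il3 0 of 4 BN procainamide arrays and 2 of 4 BN control arrays were well above background. Its mean log2 Cy5 was 6.63 in BN procainamide and 7.01 in BN control, near the floor, so no minimum fold can be given. In SD rats Ccl5, at 1.81-fold higher, and Ccl7 were the 2 of the 10 that passed, where 2.75% of all probes passed.

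Of 14 other receptors and adhesion molecules, Csf2ra, the receptor chain for the growth factor encoded by Csf2, was 1.55-fold higher and C3ar1, the receptor of a complement fragment, 1.36-fold lower in BN rats. Of 10 transcription factors of the lineage, Cebpe, needed for late granulocyte maturation, was 1.86-fold lower (adjusted p = 0.00882) and Irf8 1.45-fold higher (adjusted p = 0.0211, limma). Gata1 was at -0.30 (adjusted p = 0.711, limma). Of 7 genes for ribonucleases and lipid mediators, Alox5, which starts leukotriene synthesis, was 1.65-fold higher in BN rats (adjusted p = 0.00936, limma). In BN rats 2 of the 14, 2 of the 10 and 1 of the 7 thus passed, where 21.8% of all probes passed in either direction. In SD rats 0 of these 31 genes passed, where 2.75% of all probes did, and 9 had an unadjusted p under 0.05 (limma).

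Of 57 markers of other blood cells, 11 passed in BN rats, which is 19.3%, against 21.8% of all probes. Of 11 basophil and mast cell markers, Hdc, which makes histamine, and Fcer1a, a chain of the IgE receptor, were higher and Tpsb2, a tryptase, was lower. Their summed Cy5 signal was 37398 to 46012 on BN procainamide arrays against 29642 to 35636 on BN control arrays. The median log2 difference of the 11 was -0.21, so the sum, which the brightest genes weigh most, and the median went in opposite directions. Of 11 neutrophil markers Mmp9 was 1.96-fold higher, with sums of 56400 to 138472 on BN procainamide arrays against 60061 to 90986 on BN control arrays. The median log2 difference of the neutrophil markers was 0.76. An unadjusted p under 0.05 was reached by 5 of these 11 (limma), and by 9116 of all 26446 probes. Of 9 monocyte markers Lyz2 and Fcgr3a were higher, with sums of 226633 to 323438 in BN procainamide against 194754 to 245542 in BN control. Of 5 platelet markers Gp1bb, Gp9 and Ppbp were lower, with sums of 52571 to 75200 in BN procainamide against 67576 to 97813 in BN control. Of the 8 T cell markers 0 passed and 1 had an unadjusted p under 0.05 (limma), and of the 4 B cell markers Cr2 was lower. Of the 9 erythroid markers Klf1 was lower.

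Of 10 genes of glands and epithelium, which could enter blood drawn behind the eye, the kallikrein genes Klk1, Klk1b3, Klk1c2 and Klk1c3 were lower in BN rats. Over all probes 14.1% passed as lower. Aqp5, Krt8, Krt18, Epcam, Cdh1 and Pigr did not pass in either strain, so the calls came from kallikrein genes alone. Sums over the list were 107915 to 120154 on BN procainamide arrays against 151028 to 164021 on BN control arrays. In SD rats Klk1c2 (2.17-fold), Klk1c3 (1.83-fold) and Klk1 (1.63-fold) were lower (limma), Klk1b3 was at -0.69 (adjusted p = 0.155), and the sums were 116794 to 131638 on SD procainamide arrays against 133683 to 175243 on SD control arrays. The sums of the list and the Ccr3 ratios did not overlap between groups in either strain. Of all probes taken singly, 12.4% in BN rats and 3.57% in SD rats were lower without overlap. No marker in these lists was below background on all arrays of a BN group. The part of these cells and tissues in the values of the eosinophil genes was not tested.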

How the data were processed

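The authors deposited scanner output of 18 arrays (design 028279), with median spot and background intensities made by Feature Extraction 10.7.1.1, per the file headers. The processed intensities and the log10 ratios in the same deposited files were background-subtracted and dye-normalized by that software, per the file headers. A deposited table of the authors holds log2 ratios of 25602 probes, with its filter unstated. Its columns lay on slope 1 against the scanner ratios (log2 Cy5 over Cy3, not centred, column medians -0.0140 to 0.0653). The Il5ra probe was absent from it, and the results for all members came from the scanner intensities.

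Median intensities were background-corrected (normexp, offset 50) and normalized by loess in limma 3.58.1 under R 4.3.3, and Cy5 also by Aquantile for the strains. Spots marked non-uniform or outlying were left out (0.0741% of values had no other spot and kept all), spots of a probe were averaged, and no spot was saturated. Of 30367 probes, 26446 passed a filter (Cy5 well above background on 4 or more arrays) and were tested in 1 limma model with a mean per group (14 residual degrees of freedom, 2-sided, Benjamini-Hochberg over all probes, threshold 0.05).

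Precision is limited by the number of arrays. The members and the lists were chosen with earlier results of these data known. Beside the members, genes of the lists that passed in a comparison were eligible, up to 4 of smallest p for each list; other genes of a list were named after their values were seen, to fill a count. The 6 genes most like the granule genes by Pearson r were named on each of the 2 measures. The scripts were tested on simulated data. Alternatives covered background correction, scanner processed signals, the filter, scan day, slide, brightness, channel, replicate block, the groups fitted and each array left out.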

Additional observations from a re-analysis of the deposited data

Results flagged for a closer look

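Il5ra, the interleukin 5 receptor alpha chain, had a log2 Cy5 of 7.25 on BN control array 3, far from the other BN control arrays, which lay between 6.67 and 6.73. The gap to the nearest array was 0.882 of the range of the group, more than is usual among 4 arrays. It was 1 of 64 groups of values examined, and chance marks about 1 in 20. The log2 ratio of the same array was -0.02, within the -0.05 to -0.02 of the group. It was the 1 BN control array on which Il5ra was well above background.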

How the results depend on the processing

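No replicate numbers pair the arrays: same-numbered procainamide and control arrays had correlations of their deviations of -0.523 to 0.129 over 9 pairs. The replicate block moved the number of probes called to 3581 in BN rats, 128 in SD rats, 1364 for the difference between the responses and 3395 for the strains under procainamide, and the members called to 2 in BN rats and 1 between controls.

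The numbers of probes called with the groups' means alone were 5757 in BN rats, 727 in SD rats, 2948 for the difference between the responses, 10183 between controls and 5248 between the strains under procainamide. With scan day as a term they were 209, 254, 0 (1528 at an unadjusted p under 0.05, limma), 372 and 2621 in that order, and with array brightness as a term 685, 419, 6, 2780 and 2885. With slide as a random block 4555 were called between controls and 2113 under procainamide. In the groups compared alone the counts were 2801 in BN rats, 1486 in SD rats and 2743 under procainamide, and 344 in SD rats on slide 1. In quantile-normalized Cy5 alone 10337 were called in BN rats and 9363 for the difference between the responses. The share of BN calls that were higher was 35.3%, against 48.2% in Cy5 alone and 51.2% with scan day.

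Of the 8 members, 4 were called in BN rats, against 0 with scan day, 1 with brightness, 1 without control arrays 1, 3 with slide as a random block (Prg2 lost, adjusted p = 0.0515) and 3 in the groups alone (Siglec5 lost, adjusted p = 0.107, limma). In SD rats 0 were called, against 1 without control arrays 1, 1 in the groups alone, 1 in Cy5 alone and 1 with slide as a block. Between controls 2 were called. With probes above background on all 18 arrays it was 1, because that filter left Rnase3 untested, and Ccr3 kept its call. The count was 0 with scan day (0 at an unadjusted p under 0.05), 0 with slide as a random block (2 unadjusted), 0 with brightness (1 unadjusted) and 1 without control arrays 1. Under procainamide 2 were called, against 1 with slide as a random block and 1 in the groups alone.

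Members that changed sign were not called in any of these settings. With brightness Epx was at 0.12 in SD rats, and in the difference between the responses Il5ra was at -0.023 and Alox15 at 0.27. Il5ra was at -0.12 there in Cy5 alone, at -0.046 between controls with scan day and at 0.10 under procainamide in scanner signals. Without control arrays 1 Alox15 was at 0.032 between the responses and Epx at -0.33 between controls. The cause of these changes was not tested.

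Leaving out 1 array at a time gave 1 to 6 members called in BN rats, 0 to 0 in SD rats, 0 to 2 between the responses, 1 to 2 between controls and 2 to 2 under procainamide. Probes called were 3936 to 6497, 234 to 956, 1882 to 3824, 8521 to 10282 and 3240 to 5786 in that order. In SD rats it gave -0.45 to 0.20 for Prg2, -0.53 to 0.19 for Prg3, -0.56 to 0.16 for Epx, -0.15 to 0.29 for Rnase3 and -0.15 to 0.073 for Siglec5. Between the responses Il5ra was at -0.038 to 0.079 and Alox15 at -0.61 to -0.079. Between controls Epx was at -0.29 to 0.46, Alox15 at -0.42 to 0.13 and Il5ra at -0.077 to 0.12, and under procainamide Rnase3 was at -0.34 to 0.41. Each member had 1 probe, so no second probe could be set beside it, and the difference between the responses has no fit on 2 groups.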

Other observations

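Genes that neighbour the members on the chromosome were looked up after the values were seen. Of those measured, Ccr1l1, Or4d2 and Or4d2b alone passed in BN rats, all lower. Over all probes 14.1% passed in that direction. Ccr1l1, a chemokine receptor gene beside Ccr3, was at -1.39 ± 0.30 (SE, adjusted p = 0.00336, limma) in BN rats and at -0.84 ± 0.27 (adjusted p = 0.102) in SD rats. Or4d2 and Or4d2b, olfactory receptor genes beside Epx, were at -0.76 (adjusted p = 0.00103) and -0.82 (adjusted p = 0.00149, limma) in BN rats. Alox12e, beside Alox15, was at -0.42 (adjusted p = 0.472, limma) in BN rats. Ccr1 and Ccr2, which also lie near Ccr3, were above 0 there, at 0.65 (adjusted p = 0.080) and 0.50 (adjusted p = 0.148, limma).

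Of 11 mast cell and basophil genes, 6 were higher in BN controls and 5 did not pass, where 21.2% of all probes were higher and BN and SD controls lay on different slides. The 6 were Cpa3 (2.88-fold), Cma1 (2.40-fold), Tpsb2 (1.88-fold), Mcpt8l2 (1.66-fold), Tpsab1 (1.64-fold) and Mcpt8 (1.56-fold), with adjusted p-values of 0.000376 to 0.0417 (limma). Il4, a cytokine of basophils and T cells, was 2.66-fold lower in BN controls (adjusted p = 4.03e-06, limma).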
